A study of Schizosaccharomyces pombe with 6 samples.

Results

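The vacuolar proton ATPase (V-ATPase) genes vma1 to vma8 of fission yeast were followed in cells that overexpressed the long non-coding RNA aal1. The genes were chosen by name alone: they are the 8 rows of the count table whose identifiers carry the standard names vma1 to vma8 in RefSeq, among 6952 rows in all. All 8 passed the filter on low values, as did 5823 of the rows. RNA had been sequenced in 6 libraries of 2 groups from Schizosaccharomyces pombe cultures on day 6 of chronological ageing, when the cells no longer divide. In 3 libraries, named aal1-pOE, aal1 was transcribed from a plasmid under P41nmt1, a promoter that thiamine represses. In the 3 evc libraries the same plasmid was empty. Cells of both groups came from a haploid strain of the 972h-/leu1-32 background, and both were grown in minimal medium with glutamate as nitrogen source and without thiamine. Expression was therefore ectopic. The labels call the replicates biological. RNA came from whole cultures, so that a change in the number of cells that hold a transcript and a change in its amount per cell cannot be told apart.

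The V-ATPase is a rotary pump of the vacuole and other endomembranes that couples ATP hydrolysis to proton transport into the lumen. Its soluble sector V1 hydrolyses ATP and turns a central rotor, and its membrane sector V0 carries the protons across the membrane on a ring of proteolipid subunits. The acidity it makes drives the storage of amino acids, metals and phosphate in the vacuole and the activity of vacuolar proteases, which matter to cells that live without nutrients. In budding yeast V1 and V0 come apart reversibly when glucose runs out, so that the activity of the pump is set after its subunits are made, a level that RNA counts do not show. Of the members, vma1 (A) and vma2 (B) form the catalytic head of V1, vma4 (E) belongs to its outer stalks, vma5 (C) joins the stalks to the membrane sector, and vma8 (D) and vma7 (F) form the rotor axle. In V0, vma3 (c) is the proteolipid of the proton-carrying ring and vma6 (d) couples the ring to the axle. These roles are best known from budding yeast.

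None of the 8 genes was called between the groups, while 7 of 8 had a positive log2 fold change, as had 3147 of 5823 genes. By the quasi-likelihood test of edgeR, with p-values adjusted over 5823 genes by the Benjamini-Hochberg method, 0 of 8 members reached an adjusted p of 0.05, beside 5.99% of all tested genes (79 higher and 270 lower in aal1-pOE). At an unadjusted p under 0.05, vma5 and vma6 were higher in aal1-pOE, 2 of 8, beside 14.6% of all genes that were higher at that level. The edgeR likelihood ratio test, DESeq2 and limma-voom also called 0 of 8, beside 14.9%, 15.5% and 4.36% of all tested genes. The median log2 fold change of the members was 0.36 (range -0.03 to 0.65), beside 0.08 over all tested genes.

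The libraries held 6130047 to 13164975 counts in aal1-pOE and 5839863 to 6977373 in evc. The overexpressed RNA aal1 (SPNCRNA.1530) had 54, 141 and 58 counts in the aal1-pOE libraries, against 4, 2 and 4 in evc, as the labels state. The counts of ribosomal protein genes made up 3.05, 3.68 and 2.66% of each aal1-pOE library, against 6.61, 10.9 and 11.1% in evc. The trimmed mean of M-values (TMM) method, which sets a library's scale from the bulk of its genes, gave factors of 1.07, 1.80 and 1.04 in aal1-pOE, against 0.850, 0.763 and 0.771 in evc, and aal1-pOE replicate 2 stood apart. Levels below are counts per 1000000 counts (CPM) scaled with these factors unless library totals are named. With library totals alone the log2 fold changes of all genes moved up by 0.72 in the median. Of 10 genes of dividing cells, 0 were at 0 in any library, and their summed level was 426, 506 and 504 CPM in aal1-pOE, against 408, 383 and 356 CPM in evc. The gene cdc22 alone took 148, 187 and 193 CPM of this sum in aal1-pOE, against 113, 92.7 and 62.2 CPM in evc. Of the 10 genes, 8 had a positive log2 fold change, and plo1 (-0.49) and mid2 (-0.11) had negative ones. The largest was 2.39 in cdc15, which stood at 12.6, 71.5 and 11.2 CPM in aal1-pOE, against 4.89, 7.85 and 5.63 CPM in evc. The part of these differences in the results on the V-ATPase was not tested.

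The sequence before each gene was read because its promoter could hold known elements. The stretches of 120 bases that end at the base before the annotated transcript start are shown for 4 members, those with the smallest p (vma6 and vma5) and those with the fold changes nearest to 0 (vma3 and vma4), 5′ to 3′ on the strand of the gene. Capitals mark a match to TATAAA on either strand.
vma6: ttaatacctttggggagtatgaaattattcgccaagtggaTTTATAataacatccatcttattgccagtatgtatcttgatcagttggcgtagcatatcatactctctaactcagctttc
vma5: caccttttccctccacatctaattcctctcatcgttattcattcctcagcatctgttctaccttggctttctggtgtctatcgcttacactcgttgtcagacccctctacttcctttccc
vma3: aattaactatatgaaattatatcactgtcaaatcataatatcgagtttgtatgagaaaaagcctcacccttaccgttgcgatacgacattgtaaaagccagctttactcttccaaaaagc
vma4: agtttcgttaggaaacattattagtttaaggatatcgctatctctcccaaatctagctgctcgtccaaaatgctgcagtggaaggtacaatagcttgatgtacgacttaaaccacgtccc
In the RefSeq assembly ASM294v3 these stretches are chrI:3556546-3556665 on the minus strand for vma6 and, on the plus strand, chrI:2720695-2720814 for vma5, chrI:4954459-4954578 for vma3 and chrI:5294857-5294976 for vma4. Only vma6 held a match here, on the minus strand of the gene at position -80 from the start. In windows of 300 bases, with 250 before the start and 50 after it, TATAAA was found on either strand in vma6 and vma4 (at position 11), 2 of 8 members, and in 48.1% of 5110 promoters. The HomolD box of ribosomal protein genes (CAGTCACA) was found in 0 of 8 members and in 2.68% of promoters, and the cyclic AMP response element core (TGACGT), which the stress factor Atf1 binds, in 0 of 8 and in 5.91%. Both strands were read, no motif contains another, and a window without a match says only that these letters are not in it.

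The catalytic head of V1 came first. The A subunit gene vma1 (SPAC343.05, plus strand of chromosome I, 1647218 to 1649410, 3 exons) encodes the subunit that binds and hydrolyses ATP. Its level was 156, 106 and 175 CPM in aal1-pOE, against 124, 129 and 131 CPM in evc. Replicates 1 and 3 of aal1-pOE lay above all evc libraries and replicate 2 below them, so the groups overlapped. The log2 fold change of vma1 was 0.19 ± 0.24 (SE, n = 3 each; edgeR adjusted p = 0.610), with a 95% interval of -0.34 to 0.72. Leaving out aal1-pOE replicate 2 gave 0.39 for vma1 and leaving out aal1-pOE replicate 3 gave 0.04. The evc libraries of vma1 were close together, with an SD of 3.54 CPM, against 35.6 CPM in aal1-pOE.

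The gene of the B subunit, vma2 (SPAC637.05c, minus strand of chromosome I, 4546813 to 4548872, 5 exons), encodes the partner of A in the head. It stood at 158, 107 and 161 CPM in aal1-pOE, against 116, 101 and 96.2 CPM in evc. Again replicates 1 and 3 were above every evc library, while replicate 2 lay between them. For vma2 the log2 fold change was 0.45 ± 0.23 (SE, n = 3 each; edgeR adjusted p = 0.234), with a 95% interval of -0.07 to 0.96. The deviations of vma1 and vma2 from their own means over the 6 libraries went together, with r = 0.81 over 6 libraries. This was not particular to the head: r was 0.85 for vma1 with vma4 and 0.88 for vma5 with vma6. The ratio of vma1 to vma2, per kilobase of transcript, averaged 0.888 (SD 0.0498, n = 3) in aal1-pOE and 1.08 (SD 0.129, n = 3) in evc, and the values of the libraries overlapped.

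In the stalks, vma4 (SPAC11E3.07, plus strand of chromosome I, 5294977 to 5296384, 1 exon) had the widest spread of the members among the aal1-pOE libraries on the log2 scale. Its level was 106, 47.7 and 102 CPM in aal1-pOE, against 87.4, 87.1 and 74.7 CPM in evc. In aal1-pOE replicate 2 it was the lowest of all libraries, and in replicates 1 and 3 it was above evc. Its log2 fold change of 0.03 ± 0.30 (SE, n = 3 each; edgeR adjusted p = 0.950; 95% interval -0.64 to 0.71) thus averaged libraries that lay on both sides of evc. The log2 fold change of vma4 became 0.34 when aal1-pOE replicate 2 was left out, -0.15 when aal1-pOE replicate 1 was, -0.12 when aal1-pOE replicate 3 was and -0.03 when evc replicate 3 was. It was 0.07 when evc replicate 1 or evc replicate 2 was left out.

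The C subunit gene vma5 (SPAPB2B4.05, plus strand of chromosome I, 2720815 to 2722630, 7 exons) encodes the link that leaves the complex when the sectors of the budding yeast pump come apart. It stood at 44.8, 58.2 and 53.4 CPM in aal1-pOE, against 36.1, 35.9 and 32.2 CPM in evc. Every aal1-pOE library was above every evc library. The log2 fold change of vma5 was 0.59 ± 0.21 (SE, n = 3 each; edgeR adjusted p = 0.12), with a 95% interval of 0.11 to 1.07 that is not corrected for the number of genes.

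The rotor axle genes had fewer counts. The F subunit gene vma7 (SPBC3B9.18c, minus strand of chromosome II, 4021130 to 4021849, 2 exons) had 109, 477 and 70 counts in aal1-pOE, against 62, 35 and 46 in evc, which gave 11.5, 20.2 and 11.03 CPM in aal1-pOE, against 10.5, 7.85 and 9.26 CPM in evc. The groups did not overlap, but replicates 1 and 3 of aal1-pOE were close to the highest evc library and replicate 2 was far above both. The log2 fold change of vma7 was 0.64 ± 0.39 (SE, n = 3 each; edgeR adjusted p = 0.308), with the widest 95% interval of the members, -0.24 to 1.52, and it was 0.31 when aal1-pOE replicate 2 was left out. The D subunit gene vma8 (SPCC965.03, plus strand of chromosome III, 2285006 to 2286855, 3 exons) stood at 36.1, 45.0 and 34.4 CPM in aal1-pOE, against 40.8, 30.3 and 24.4 CPM in evc. Here evc replicate 1 lay above aal1-pOE replicates 1 and 3. The estimate for vma8 was a log2 fold change of 0.28 ± 0.26 (SE, n = 3 each; edgeR adjusted p = 0.499), with a 95% interval of -0.32 to 0.87. For vma8 it was 0.16 when aal1-pOE replicate 2 was left out, 0.50 when evc replicate 1 was and 0.13 when evc replicate 3 was.

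In the membrane sector the members took different values. The proteolipid gene vma3 (SPAC1B3.14, plus strand of chromosome I, 4954579 to 4955675, 5 exons) stood at 66.3, 53.3 and 60.5 CPM in aal1-pOE, against 67.8, 57.4 and 59.0 CPM in evc. The groups overlapped between 57.4 and 66.3 CPM, and the log2 fold change was -0.03 ± 0.20 (SE, n = 3 each; edgeR adjusted p = 0.915), with a 95% interval of -0.48 to 0.41. The gene of the d subunit, vma6 (SPAC17A2.03c, minus strand of chromosome I, 3554534 to 3556545, 2 exons), stood at 58.5, 61.6 and 64.2 CPM in aal1-pOE, against 42.3, 33.7 and 41.7 CPM in evc. All aal1-pOE libraries of vma6 were above all evc libraries, and they were the closest together of any member, with an SD of 2.81 CPM. For vma6 the log2 fold change was 0.65 ± 0.20 (SE, n = 3 each; edgeR adjusted p = 0.0875; 95% interval 0.19 to 1.11), the smallest adjusted p of the 8.

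**Figure D1:**
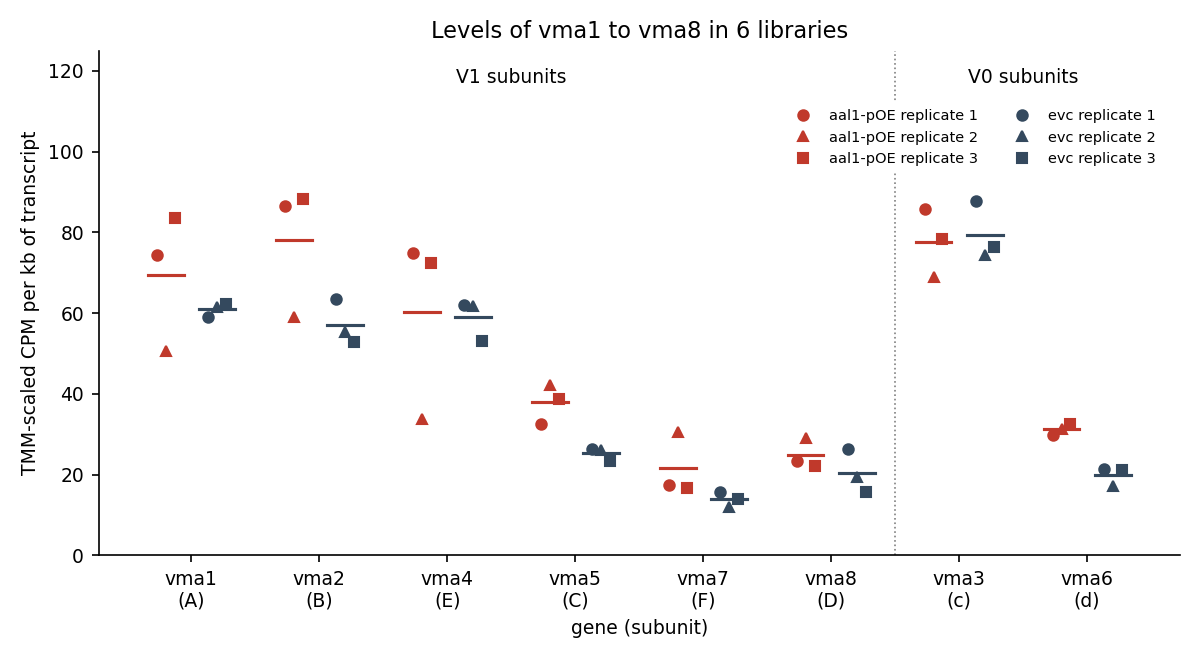
Level of vma1 to vma8 in TMM-scaled CPM per kilobase of annotated transcript (vertical axis, linear), by gene with V1 subunits left of the dotted line and V0 subunits right of it. Red points are the 3 aal1-pOE libraries, dark points the 3 evc libraries, shapes give the replicate number and bars the means. The groups are apart in vma5, vma7 and vma6, and the red triangle of aal1-pOE replicate 2 is below the other aal1-pOE libraries in vma1, vma2, vma4 and vma3 and above them in vma5, vma7 and vma8.

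Counted together, 3 of 8 members (vma5, vma6 and vma7) had all aal1-pOE libraries above all evc libraries in TMM-scaled CPM, beside 18.4% of all tested genes. With library totals alone this held for 8 of 8 members, beside 47.2% of all tested genes. On that scale edgeR called 3 of 8 members, beside 8.88% of all genes called higher: vma1 (log2 fold change 0.83, adjusted p = 0.0399), vma2 (1.09, adjusted p = 0.0323) and vma6 (1.35, adjusted p = 0.0444). The median of the members with library totals was 1.05 and that of all tested genes 0.80, so that the members stood 0.25 above the median of all genes, against 0.28 with TMM factors. The summed level of the 8 genes from library totals was 684, 896 and 685 CPM in aal1-pOE, against 445, 368 and 361 CPM in evc. The sum in TMM-scaled CPM was 637, 499.5 and 662 in aal1-pOE, against 524, 482 and 468 in evc, where aal1-pOE replicate 2 fell inside the range of evc. Without aal1-pOE replicate 2, edgeR called vma2 (adjusted p = 0.0327) and vma6 (adjusted p = 0.0454), 2 of 8 beside 4.42% of all genes called higher.

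**Figure D2:**
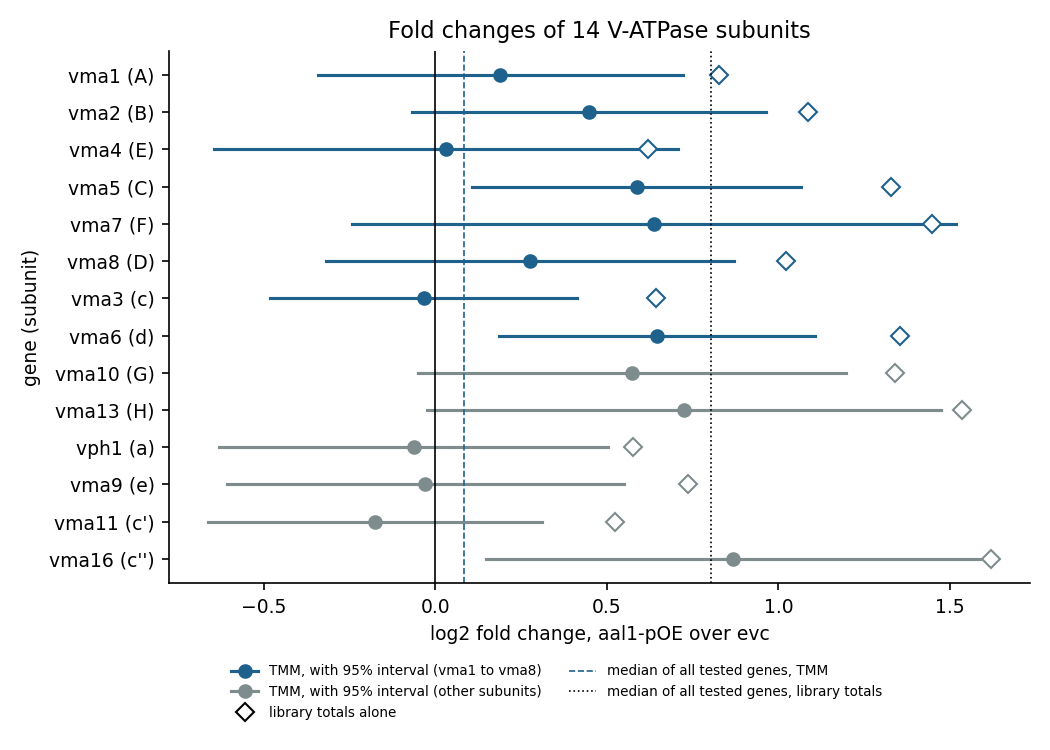
Log2 fold change, aal1-pOE over evc (horizontal axis), of the 14 V-ATPase subunit genes, vma1 to vma8 in blue and the other subunits in grey. Filled points with bars are edgeR estimates with TMM factors and their 95% intervals, open diamonds are estimates with library totals alone, and the vertical lines are the medians of all tested genes, 0.08 with TMM factors and 0.80 with library totals. All diamonds lie to the right of their points, and the TMM intervals of vma5, vma6 and vma16 do not reach 0.

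Per kilobase of annotated transcript, the genes of the complex differed several-fold in level. In evc the order of the means was vma3 (79.4 CPM per kb), vma1 (61.0), vma4 (59.0), vma2 (57.1), vma5 (25.2), vma8 (20.5), vma6 (19.9) and vma7 (13.9). Among these neighbours, vma1, vma4 and vma2 overlapped in their libraries. The libraries of vma8 overlapped those of vma5 and those of vma6, while vma5 and vma6 were apart. All libraries of vma3 were above those of the other genes. The genes vma1, vma4 and vma2 were apart from vma5, vma8 and vma6, and vma7 was apart from vma6 but not from vma8. In aal1-pOE the order was vma2 (78.0 CPM per kb), vma3 (77.6), vma1 (69.6), vma4 (60.4), vma5 (37.9), vma6 (31.2), vma8 (24.8) and vma7 (21.5), and only vma6 and vma8 were neighbours without overlap. Against the tested protein-coding genes, the means of the members stood between percentiles 42.6 (vma7) and 79.8 (vma2) in aal1-pOE and between 36.7 (vma7) and 76.6 (vma3) in evc. The order depends on the length used, since the untranslated part of the transcript differs between the genes, for example 680 nucleotides after the coding sequence in vma4 and 52 in vma5. Per kilobase of coding sequence vma4 stood at 124 CPM in aal1-pOE and 121 in evc and vma3 at 123 CPM in aal1-pOE and 126 in evc, both above vma1 (78.4 in aal1-pOE and 68.7 in evc).

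Within a library the share of each gene in the summed level per kilobase does not depend on the scale between libraries. The shares of vma3 and vma6 did not overlap between the groups, and those of the other 6 members did. Shares were taken among the 8 members only, so no value over all genes stands beside this count. They are parts of one sum, so a share can fall while the level of its gene does not. The level of vma3 overlapped between the groups, with a log2 fold change of -0.03. For vma3 the share was 20.2, 19.9 and 18.1% in aal1-pOE, against 24.2, 22.7 and 23.9% in evc. For vma6 it was 6.998, 9.05 and 7.53% in aal1-pOE, against 5.94, 5.22 and 6.64% in evc. Set against vma3, the level of vma6 was 34.7, 45.4 and 41.6% of that of vma3 in aal1-pOE, against 24.5, 23 and 27.7% in evc, and that of the V1 gene vma5 was 38.0, 61.4 and 49.6% in aal1-pOE, against 29.9, 35.1 and 30.7% in evc, also without overlap. With gene spans or coding lengths in place of transcript lengths, the shares of vma3 and vma6 also did not overlap. These ratios were picked after their values were seen, and 3 libraries against 3 cannot give an exact two-sided permutation p under 0.1, so no test is given. Together the V0 genes vma3 and vma6 held 27.2, 29.0 and 25.6% of the sum in aal1-pOE, against 30.2, 27.9 and 30.6% in evc, which overlapped.

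**Figure D3:**
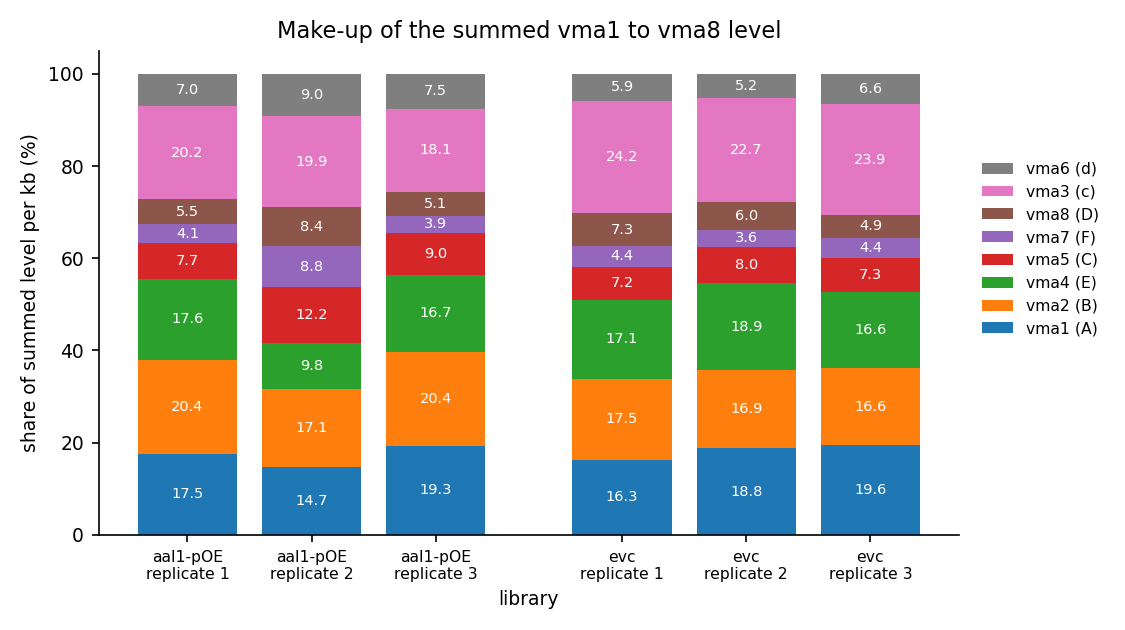
Share of each gene (percent, vertical axis from 0) in the summed TMM-scaled CPM per kilobase of vma1 to vma8, one bar for each of the 6 libraries, aal1-pOE left and evc right. The share of vma3 is at most 20.2% in aal1-pOE and at least 22.7% in evc, and vma4 takes 9.81% in aal1-pOE replicate 2, its smallest share.

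The members did not vary as one block. Over the 6 libraries, the r of a member with the mean of the other 7, in log2 TMM-scaled CPM centred per gene, was 0.86 for vma2, 0.83 for vma6 and 0.70 for vma5, but 0.19 for vma3 and -0.02 for vma4. Of the 28 pairs, 19 had an r above 0. The largest r was 0.88, between vma5 and vma6, and the lowest was -0.70, between vma4 and vma7. These are descriptions over 6 libraries that share their scaling factors. One library took much of the spread. In aal1-pOE replicate 2 vma1, vma2, vma3 and vma4 were the lowest of the aal1-pOE libraries and vma5, vma7 and vma8 the highest. On the log2 scale, with 0.5 CPM added, replicate 2 over the mean of replicates 1 and 3 was -1.11 for vma4, -0.64 for vma1 and -0.57 for vma2, and 0.81 for vma7, 0.35 for vma8 and 0.24 for vma5. The order followed the level of the genes, with r = -0.90 over the 8 members and -0.62 over all tested genes. Split by level into 4 classes of equal size, all tested genes had a median of 1.05 in the lowest class and -0.73 in the highest, so that the medians of all genes crossed 0 in the same direction as the members. The level was the mean of aal1-pOE replicates 1 and 3 and evc replicates 2 and 3, so it shares libraries with that ratio. Where the difference between replicate 2 and the others came from was not tested.

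**Figure D4:**
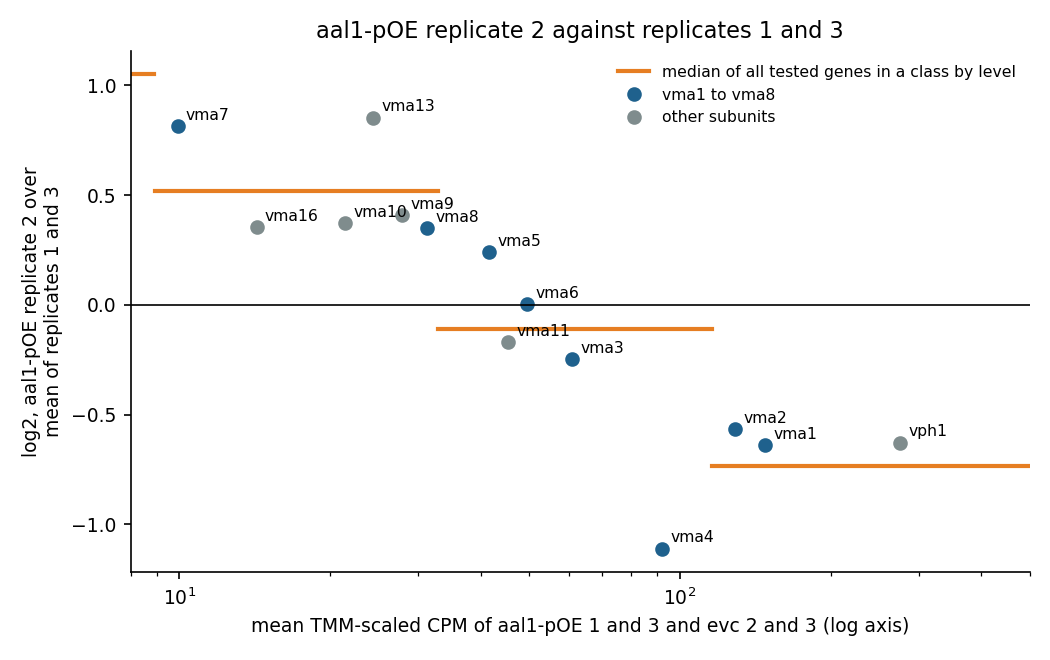
Log2 ratio of aal1-pOE replicate 2 to the mean of aal1-pOE replicates 1 and 3 in TMM-scaled CPM (vertical axis) against mean level (horizontal log axis) for 14 V-ATPase subunit genes, vma1 to vma8 in blue and the others in grey. Orange lines are medians of all tested genes in 4 classes by level. Both the subunits and the medians pass from above 0 at low level to below 0 at high level, with vma7 at 0.81 and vma4 at -1.11.

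The remaining subunits lay on both sides of 0 as well. Of the 6, 0 were called, and 3 had a positive log2 fold change, with a median of 0.27. In V1, vma10, the G subunit of the outer stalks, had 22.0, 31.1 and 25.9 CPM in aal1-pOE, against 15.2, 18.6 and 19.3 CPM in evc, without overlap (log2 fold change 0.57 ± 0.28 SE; edgeR adjusted p = 0.213). The H subunit gene vma13, whose product silences free V1 in budding yeast, had a log2 fold change of 0.72 ± 0.33 (SE; edgeR adjusted p = 0.194), with 53.1 CPM in aal1-pOE replicate 2 and 30.3 and 28.1 CPM in replicates 1 and 3, against 28.5, 16.2 and 22.9 CPM in evc. In V0, vma16, the proteolipid c″, stood at 20.1, 23.7 and 16.9 CPM in aal1-pOE, against 13.16, 9.42 and 10.7 CPM in evc. The groups of vma16 did not overlap, and its log2 fold change of 0.87 ± 0.32 (SE; edgeR adjusted p = 0.125) was the largest of the 14. For vma11, the proteolipid c′, it was -0.18 ± 0.22 (SE; edgeR adjusted p = 0.603). The a subunit gene vph1, which forms the proton path beside the ring and had the highest level of the complex per kilobase of transcript, stood at 284, 185 and 289 CPM in aal1-pOE, against 264, 256 and 272 CPM in evc (log2 fold change -0.06 ± 0.25 SE; edgeR adjusted p = 0.882). The small membrane subunit gene vma9 had -0.03 ± 0.26 (SE; edgeR adjusted p = 0.946). Over all 14 subunits the median was 0.36.

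Genes that act with the pump were set beside it from lists. Of 7 assembly and regulation genes, 0 were called and 6 had a positive log2 fold change (median 0.47). The most abundant, rav1, whose product helps V1 and V0 rejoin in budding yeast, had -0.01 ± 0.20 (SE; edgeR adjusted p = 0.966). It was the 1 gene of this list with a negative value, and the largest value was 0.81 ± 0.32 in big1 (SE; edgeR adjusted p = 0.148). The plasma membrane proton pump gene pma1, which moves protons out of the cell, stood at 2335, 1858 and 2443 CPM in aal1-pOE, against 2474, 3054 and 3291 CPM in evc, with a log2 fold change of -0.41 ± 0.37 (SE; edgeR adjusted p = 0.471). For pma1 the sign depended on the scale, with 0.265 from library totals alone. Of 14 nuclear genes of the mitochondrial ATP synthase, a rotary machine of related build that runs in the direction of ATP synthesis, 0 were called and 6 had a positive log2 fold change (median -0.08). Its most abundant gene, atp1, had -0.34 ± 0.25 (SE; edgeR adjusted p = 0.370), and 0.32 with library totals alone. The difference between the medians of the 2 rotary ATPases, 0.36 and -0.08, was not tested.

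Next came 14 genes of vacuolar membrane transport and polyphosphate synthesis, which use or store what the proton gradient drives. Of these, 0 were called higher and 1 lower, while 9 had a positive log2 fold change and 5 a negative one (median 0.24). Over all 5823 tested genes, 79 were called higher and 270 lower. The gene of the list called lower was ctr6, a vacuolar copper transporter, with 14.3, 26.8 and 15.3 CPM in aal1-pOE, against 38.1, 59.7 and 72.4 CPM in evc. For ctr6 this gave a log2 fold change of -1.58 ± 0.34 (SE; edgeR adjusted p = 0.0260) and -0.75 with library totals alone, where it was not called (edgeR adjusted p = 0.265). Its call also ended without aal1-pOE replicate 1 (edgeR adjusted p = 0.0795), without replicate 2 of evc (0.128), without replicate 3 of evc (0.155) and in limma-voom (adjusted p = 0.0562). The most abundant of the list, the calcium pump gene pmc1, had -0.42 ± 0.41 (SE; edgeR adjusted p = 0.502), and 0.145 with library totals alone. The largest value of the list was 1.36 ± 0.60 in fnx1 (SE; edgeR adjusted p = 0.178). Its level was 8.14, 28.1 and 6.94 CPM in aal1-pOE, against 7.59, 4.49 and 4.83 CPM in evc. Of 3 vacuolar hydrolase genes 0 were called, and 2 had a negative log2 fold change (median -0.12). The most abundant, the carboxypeptidase Y gene cpy1, stood at 2534, 1843 and 2522 CPM in aal1-pOE, against 2896, 1794 and 1762 CPM in evc. The log2 fold change was 0.10 ± 0.39 for cpy1 (SE; edgeR adjusted p = 0.881). It was -0.70 ± 0.24 for psp3 (SE; edgeR adjusted p = 0.110) and -0.12 ± 0.35 for isp6 (SE; edgeR adjusted p = 0.827). With library totals alone both were positive, at 0.03 for psp3 and 0.51 for isp6. Of the 10 dividing-cell genes 0 were called (median 0.53). The most abundant by the mean over all libraries, cdc22 of ribonucleotide reductase, ranked first through its level in aal1-pOE, at 176 CPM (mid2 123 CPM), against 89.3 CPM in evc (mid2 132 CPM). Its log2 fold change, aal1-pOE over evc, was 0.98 ± 0.26 (SE; edgeR adjusted p = 0.0589).

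The genes most like the members over the 6 libraries were alg12 (r = 0.998), which encodes a mannosyltransferase of N-glycan assembly, the karyopherin gene msn5 (r = 0.996), SPBC1271.03c, annotated as a phosphatase of the NLI-interacting factor family (r = 0.992), fep1 (r = 0.989), which encodes an iron-sensing transcription factor, and nbp35 (r = 0.988) of iron-sulphur cluster assembly. The measure was Pearson's r with the mean profile of vma1 to vma8 over 6 libraries, among 4088 protein-coding genes that averaged 10 CPM or more, of which 217 had an r above 0.9. The mean does not stand for every member: vma3 and vma4 had an r of 0.19 and -0.02 with the mean of the other 7. The log2 fold change of msn5 was 0.97 ± 0.27 (SE; edgeR adjusted p = 0.0649) and that of alg12 0.69 ± 0.23 (SE; edgeR adjusted p = 0.0931). It was 0.66 for fep1, 0.63 for nbp35 and 0.24 for SPBC1271.03c (edgeR adjusted p = 0.105, 0.123 and 0.532). The mean profile itself was higher in aal1-pOE, at 0.19, 0.07 and 0.23, against -0.03, -0.22 and -0.24 in evc. A pick by likeness to it favours positive fold changes, so these values are no separate result.

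The positions of the genes bear on how they were counted. Transcripts of vma2, vma3, vma4, vma6 and vma8 overlap a gene on the opposite strand, among them ypp1 at vma2, nse6 at vma4 and yme1 at vma8, and the reads were counted by strand. Only vma8 overlaps a gene on its own strand, by 13 nucleotides with SPNCRNA.1280. Counts covered whole gene spans, introns included, while the levels per kilobase use the summed exons, from 662 nucleotides in vma7 to 2096 in vma1.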

How the data were processed

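The deposited values were raw read counts per gene, made by the authors without normalisation or pooling. The authors removed rRNA, built strand-specific paired-end libraries with molecular indices, aligned reads with STAR 2.6.1a to the PomBase genome (its build is not given in the sources used here), then counted whole genes by strand with HTSeq 0.12.3. A step that collapsed duplicates was not given, so the counts may hold PCR duplicates. Columns not used numbered 0.

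Genes that exceeded 1 CPM in 3 or more libraries entered edgeR 4.0.16 (R 4.3.3) on these counts, with TMM factors, strain as the only factor and Benjamini-Hochberg adjustment over all tested genes. Adjusted p-values come from this test unless another is named. SE was obtained by dividing the size of the log2 fold change by the root of F. The script was tested on simulated data. Alternatives were other scalings and filters, protein-coding genes alone, the likelihood ratio test, DESeq2 1.42.0, limma-voom (limma 3.58.1), a replicate block, and leaving out libraries. Symbols, positions and sequences come from RefSeq ASM294v3, which matched 6805 of 6952 identifiers.

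The members were taken by name and not by their values. Earlier results of these data were known when they, the lists and the tests were chosen. Genes named are all V-ATPase subunits, aal1, the called and the most abundant gene of each other list, and the 5 genes most like the mean profile of the members. The genes psp3, isp6, big1, fnx1, cdc15, plo1 and mid2 are named as well, to show the spread of their lists. The lists lacked vma22, voa1 and vtc1, which matched no symbol here. The symbol vma12 also matched none, but it was listed as another name of vph2, which was tested among the assembly and regulation genes.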

Additional observations from a re-analysis of the deposited data

How the results depend on the processing

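The number of members called was 0 in edgeR and 3 with library totals alone, 0 to 2 when each library was left out in turn (2 without aal1-pOE replicate 2), and 5 (vma1, vma2, vma4, vma5 and vma6) when aal1-pOE replicate 2 and evc replicate 1 were both left out, where 19.4% of all genes were called higher. Both of those libraries had been doubted in earlier results. The median of the members was 0.36, 1.05 with library totals, and 0.31 to 0.51 when each library was left out, the highest without evc replicate 1. Set against the median of all genes it was 0.28, and 0.23 to 0.40 over 17 alternatives. Of 136 single-gene values, 116 kept direction and call, 10 gained a call, and 10, all of vma3 or vma4, changed sign. For vma3 these were 0.64 with library totals, 0.028 with a filter of 10 CPM, 0.127 with both of those libraries left out, 0.0626 when aal1-pOE replicate 2 was left out and 0.0438 when evc replicate 1 was. For vma4 they were -0.0031 with protein-coding genes only, -0.0448 with the replicate block, and -0.149, -0.116 and -0.0303 without aal1-pOE replicate 1, aal1-pOE replicate 3 and evc replicate 3. With 1 library left out, the whole range was -0.102 to 0.0626 for vma3 and -0.149 to 0.338 for vma4. The replicate block called 0 members, beside 10.8% of all genes, with a median of 0.36, and same-numbered libraries did not deviate together (r of 0.030, 0.015 and 0.004), so the numbers were not taken as pairs. The depth limits vma7 most, at 35 to 62 counts in evc.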
